A study of Mus musculus with 12 samples.

Results

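The comparison of germ cells with somatic cells of the mouse ovary at embryonic day E15.5 after dexamethasone (dex) rests on 6 of the 12 bulk RNA-seq libraries of the study, 3 of germ cells and 3 of somatic cells, chosen by their labels alone. Dex is a synthetic agonist of the glucocorticoid receptor (GR), and pregnant dams were given 10 µg for each gram of body weight intraperitoneally once a day from E12.5 to E15.5, or the same volume of saline. All embryos came from the strain Tg(Pou5f1-EGFP)2Mnn, in which Pou5f1 (OCT4) regulatory sequence drives a green fluorescent protein, and ovaries were taken at E15.5. The germ cells were the GFP-positive cells of dissociated ovaries, and the somatic cells were everything GFP-negative, so supporting, stromal, epithelial, vascular and blood cells were measured together. Ovaries were pooled across litters for each library, and the labels call the 3 libraries of a group biological replicates. The 6 saline libraries served only to show where the cell-type difference, called the bias here, changed.

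At this age female germ cells have left the pluripotent primordial germ cell program and are in meiotic prophase, when chromosomes pair and recombine while the genome is guarded against retrotransposons by the piRNA pathway. The somatic cells around them include pregranulosa cells, which will enclose the oocytes, and stroma, surface epithelium, vessels and macrophages. GR is a ligand-activated transcription factor that acts through its own binding sites in each cell type, so one hormone can raise a gene in one cell and leave it alone in its neighbour.

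The germ cell libraries of both treatments held 14658503 to 17616664 counts and the somatic libraries 15161804 to 18245507, so depth overlapped between the cell types. Levels are given as CPM, which are counts scaled to library size with TMM factors, and 3 counts in 1 library, taken as the floor of detection, corresponded to 0.169 to 0.196 CPM. Haemoglobin genes took at most 0.00475% of germ cell counts and 0.331% to 1.6% of somatic counts. In a principal component analysis of the 12 libraries the first component held 92.1% of the variance. The reporter's own driver, Pou5f1, stood at 18.9, 23.4 and 19.22 CPM in the germ cell libraries after dex and had 0 counts in the 3 somatic libraries, which put it at least 117-fold higher in germ cells. Since the cells were sorted by a Pou5f1 reporter, this gene shows that the labels were not exchanged but not how pure the fractions were. In a bulk sample, fewer cells of a type and less RNA per cell cannot be told apart.

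After dex, 18171 genes passed the low-count filter, and 15312 of them differed between germ cells and somatic cells by edgeR's quasi-likelihood test at an adjusted p of at most 0.05. Of these, 7637 (42% of the genes tested) were higher in germ cells and 7675 (42.2%) were higher in somatic cells. A difference of at least 16-fold was seen for 1410 germ-high and 1824 soma-high genes. Because most genes were biased, a call alone says little about a single gene, and even 10 of 10 genes often taken as constant references were biased. Gapdh, a glycolytic enzyme, had a log2 difference (germ minus somatic) of -3.38, whereas that of Polr2a, the large subunit of RNA polymerase II, was 1.87.

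With the level of the lower group raised to the 3-count floor where it lay below it, the germ-high genes with the largest ratios among those at 10 CPM or more were Tex13b, D1Pas1, Gm15262, Pet2, Asz1, Gm44601, Myt1l and Rbm44. Tex13b, an X-linked testis-expressed gene (chromosome X, 140808307 to 140813433, GRCm38), stood at 272, 219 and 216 CPM in the germ cell libraries and at 0.119, 0.169 and 0.117 CPM in the somatic libraries. Its 7 somatic counts gave a ratio of 1730, with an exact 95% counting interval of 840 to 4310. D1Pas1, an autosomal retrocopy of a DEAD-box helicase gene, stood at 193, 196 and 200 CPM against 0, 0.0563 and 0.235 CPM. Reads of a retrocopy and its parent gene may not be separable, since the handling of reads that map to several places was not given in the sources used here. Asz1, which encodes a scaffold of the piRNA machinery on mitochondria, was at 124, 124 and 141 CPM in germ cells and at no more than 0.47 CPM in somatic cells, a log2 difference of 9.44 ± 0.29 (standard error, SE; edgeR adjusted p = 1.93e-10). In all 8 genes every germ cell library lay above every somatic library, which their choice by ratio in these same libraries nearly ensured.

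At the somatic end the largest ratios by the same measure belonged to Hba-a2, Hbb-bs, Hba-a1, Fmo1, Tmem119, Upk3b, Tmem45a and Krt19. The first 3 are haemoglobin genes, and they varied more among the somatic libraries than the others did. Hbb-bs, an adult beta globin, ranged from 1148 to 5641 CPM across the 3 somatic libraries after dex and from 3.16 to 16.45 CPM across the germ cell libraries. Hba-a2 had no count in any germ cell library after dex while its near-identical copy Hba-a1 stood at 6.57 to 27.7 CPM there, so the split of reads between the copies is uncertain. Upk3b and Krt19, both of the surface epithelium, gave log2 differences of -8.10 ± 0.26 (adjusted p = 2.46e-10) and -8.03 ± 0.26 (adjusted p = 2.73e-10). Fmo1, a flavin-containing monooxygenase, was at 55.9, 60.1 and 50.1 CPM in somatic cells against 6 counts in all 3 germ cell libraries together, a ratio of 439 (exact 95% counting interval 201 to 1200). Levels of different genes can be set side by side only per length, and there the meiotic gene Sycp3 averaged 376 FPKM in germ cells after dex, above Dazl at 257 and Ddx4 at 189 FPKM, whereas Col1a1 averaged 1090 FPKM in somatic cells against 49.2 for Krt19.

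**Figure D1:**
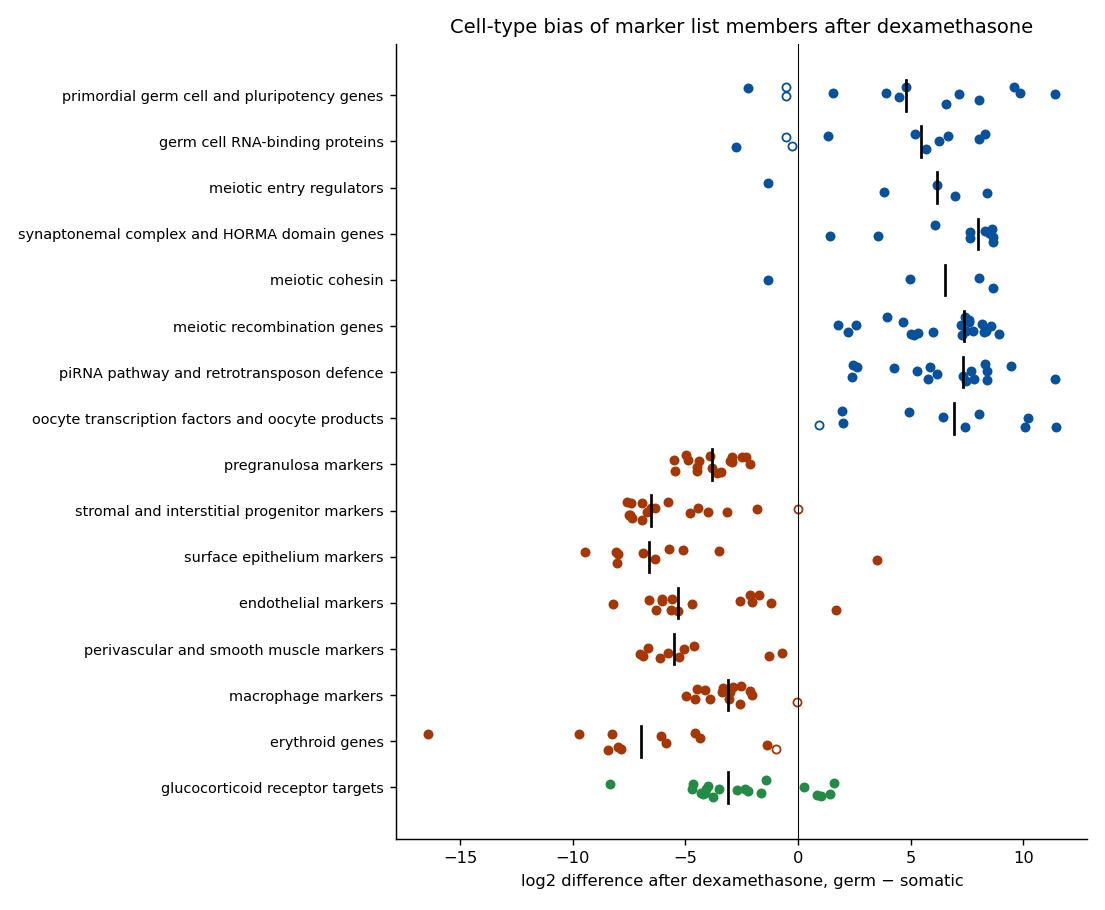
Log2 difference after dex (x axis, germ minus somatic, positive when higher in germ cells) of every tested member of 16 gene lists (y axis), where each point is 1 gene, filled when called by edgeR and open when not, and the black bar is the list median. The recombination and piRNA lists lie wholly on the germ side and the pregranulosa list wholly on the somatic side, with medians of 7.34, 7.31 and -3.81, and the point near -16 is Hba-a2, whose fitted value against a germ cell level of 0 is no bound.

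Most meiotic genes were germ-high after dex. All 22 tested recombination genes, all 10 tested genes of the synaptonemal complex (the protein scaffold that zips paired chromosomes together) and its HORMA domain partners, and all 17 tested piRNA genes were called germ-high, beside 42% of all genes. Their median log2 differences were 7.34, 7.97 and 7.31, beside -0.004 over all genes tested. Sycp1, which forms the transverse filaments of the complex, averaged 2170 CPM in germ cells against 5.46 CPM in somatic cells. Smc1b, a meiotic cohesin, averaged 1761 CPM against 6.51. Spo11, whose product makes the breaks that start recombination, averaged 159.5 CPM against 0.406. Stra8, the retinoic acid target that opens the meiotic program, varied within the germ cell group at 17.1, 14.9 and 37.6 CPM and remained under 0.3 CPM in each somatic library (log2 difference 6.96 ± 0.58, adjusted p = 5.51e-07).

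The primordial germ cell list was more mixed, with 10 of 13 tested members germ-high, 1 soma-high and 2 not called. Among them Dppa3, a maternal-effect factor of primordial germ cells, was low at 6.54, 6.28 and 4.83 CPM in germ cells with no somatic count, at least 33.5-fold higher. The soma-high member was Prdm1, a repressor of the somatic program in newly specified germ cells, at 3.28 CPM in germ cells against 14.8 CPM in somatic cells. Of the oocyte list, 9 of 10 tested members were germ-high and Gdf9, an oocyte growth factor, was not called. Figla, which switches on the egg coat genes, was at 41.5, 43.7 and 45.5 CPM against at most 0.47 CPM in any somatic library. Rec8, a meiotic cohesin, went against its lists at 4.93 CPM in germ cells against 12.2 CPM in somatic cells.

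Somatic markers were soma-high with few exceptions. All 17 pregranulosa markers, all 10 perivascular markers, 16 of 17 stromal markers, 14 of 15 endothelial markers, 9 of 10 surface epithelium markers and 15 of 16 tested macrophage markers were called higher in somatic cells, beside 42.2% of all genes. Col1a1, the main fibrillar collagen of the stroma, reached 7935, 8005 and 6071 CPM in somatic cells and 27.8 to 57.8 CPM in germ cells (log2 difference -7.51 ± 0.29, adjusted p = 9.41e-10). Wnt4, a driver of ovarian differentiation, stood at 146, 157 and 163 CPM against 1.76, 8.42 and 5.79 CPM. Foxl2, the transcription factor that defines pregranulosa cells, had the smaller gap of these, with 48.2, 65.5 and 88.6 CPM in somatic cells and 2.48, 20.02 and 14.7 CPM in germ cells (log2 difference -2.47 ± 0.47, adjusted p = 0.000519). Members against their list were the endothelial receptor gene Tek, at 29.2 CPM in germ cells against 9.02 CPM in somatic cells, and Lhx2, at 7.82 and 0.653 CPM.

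**Figure D2:**
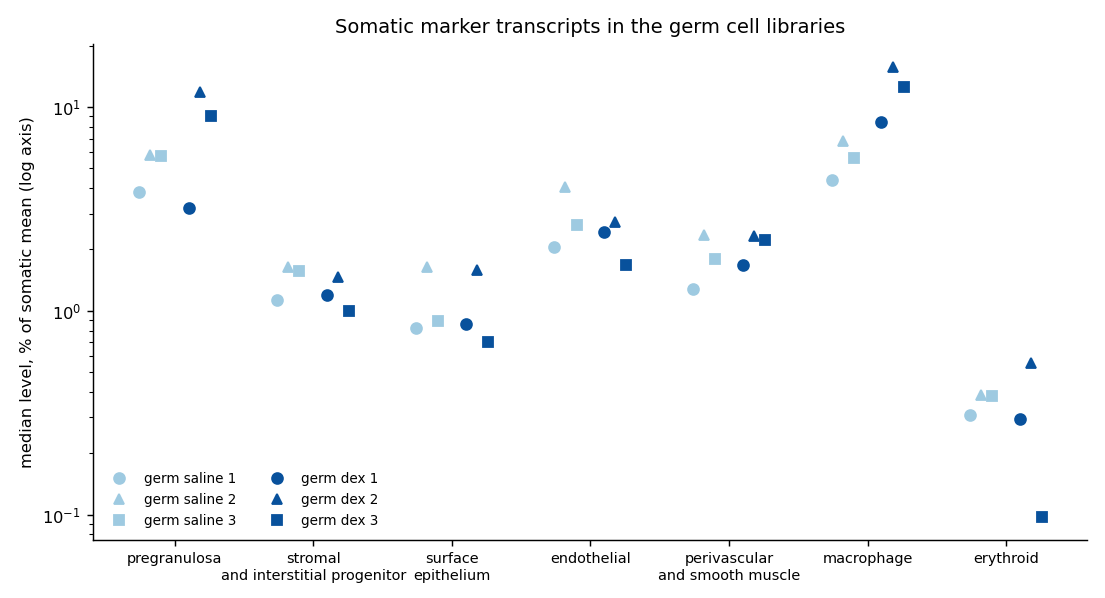
Median level of 7 somatic marker lists in each germ cell library (y axis, percent of the somatic mean of the same treatment, log axis), with light points for saline, dark points for dex and 1 symbol per replicate number. The pregranulosa and macrophage lists sit highest, at 11.9% and 15.8% in the second dex library, and the erythroid list lowest.

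Transcripts of the other fraction were uneven between lists and libraries. Pregranulosa markers reached a median of 3.18%, 11.9% and 9.07% of their somatic level in the 3 germ cell libraries after dex and 3.84% to 5.82% after saline. Macrophage markers reached 8.42% to 15.8% after dex, highest in the second library, and 4.37% to 6.8% after saline, while stromal markers remained between 0.995% and 1.64% in all 6. The first germ cell library after dex thus had the lowest pregranulosa marker median and the second the highest, whereas the stromal median was lowest in the third, at 0.995%. In the other direction, germ cell lists were at most 1.84% of their germ cell level in any somatic library of either treatment. The mean of the macrophage medians of the 3 germ cell libraries after dex was 12.2%. With the saline somatic mean in place of the dex one it was 6.32%.

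To ask whether dex blurred identity, genes at least 16-fold apart after saline were looked up in the dex libraries, which had no part in choosing them. Of the 1328 genes germ-high by that measure, 1251 were tested after dex and 1250 were again germ-high, 1105 of them by at least 16-fold. The exception was Lhx4. Of 1983 soma-high genes, 1892 were tested and 1889 were again soma-high, 1522 of them by at least 16-fold. The 3 exceptions, named after their values were seen, were Hk3, Gm12339 and Gm44812. Together the germ-high genes took 6.2% to 6.37% of the counts in the germ cell libraries after dex and 6.28% to 6.36% after saline. In the somatic libraries they took 0.112% to 0.132% after dex and 0.108% to 0.123% after saline, ranges that overlap. The soma-high genes took 0.45%, 0.703% and 0.532% of germ cell counts after dex and 0.372% to 0.481% after saline.

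Genes detected in only 1 cell type differed in part between the treatments. After dex, 795 genes had at least 1 CPM in germ cells and at most 3 counts in every somatic library, against 860 after saline, and 574 were in both sets. The somatic counterpart held 515 genes after dex and 512 after saline, with 262 in both. Over all genes tested, 1.62% were called for a change of bias. Of the 286 genes that left the germ-only set 2, Abcb5 and Gm2061, were called. Of the 221 that entered 3 were called, Itgax, Tdrd12 and Ttc9b. For the somatic set, Kcna5 and Kif12 were called among 250 that left and Fmo1 and Folh1 among 253 that entered. Most of these genes were near the floor, where the error of the change is wide. Few calls therefore do not show that the sets stayed the same. Of the 795 germ-only genes 355 were protein-coding, and of the 515 soma-only genes 373.

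A change of bias was tested directly, as the germ minus somatic difference after dex minus the same difference after saline, in 1 fit of all 12 libraries. Of 19390 genes, 314 (1.62%) were called at an edgeR adjusted p of at most 0.05, with 95 (0.49%) moving toward germ cells and 219 (1.13%) toward somatic cells. Without germ cell dex replicate 1 the order of the directions turned, with 204 genes toward germ cells and 180 toward somatic cells, and without the low-count filter the numbers were 351 and 376. At an unadjusted p below 0.05 there were 2991. Germ bias narrowed in 65 genes and was lost in 18, and it widened in 25 and was gained in 8. Soma bias narrowed in 49 genes, was lost in 8, widened in 92 and was gained in 28, and 21 genes reversed. Among genes 16-fold germ-high or soma-high after saline the share called was 0.602% and 1.11%, beside the 1.62% of all genes. These shares may not be comparable, since a level near the floor in 1 cell type leaves a wide error. The SE of the change was 1.78 for Pou5f1 and 0.14 for Dazl, both strongly germ-high. Leaving out 1 library at a time gave between 143 genes (without somatic saline replicate 3) and 384 (without germ cell dex replicate 1), and the count fell below 314 by over 1.5 times without germ cell dex replicate 2 (178) or 3 (188), germ cell saline replicate 3 (169), somatic dex replicate 1 (201) or 2 (182), or somatic saline replicate 2 (167) or 3.

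**Figure D3:**
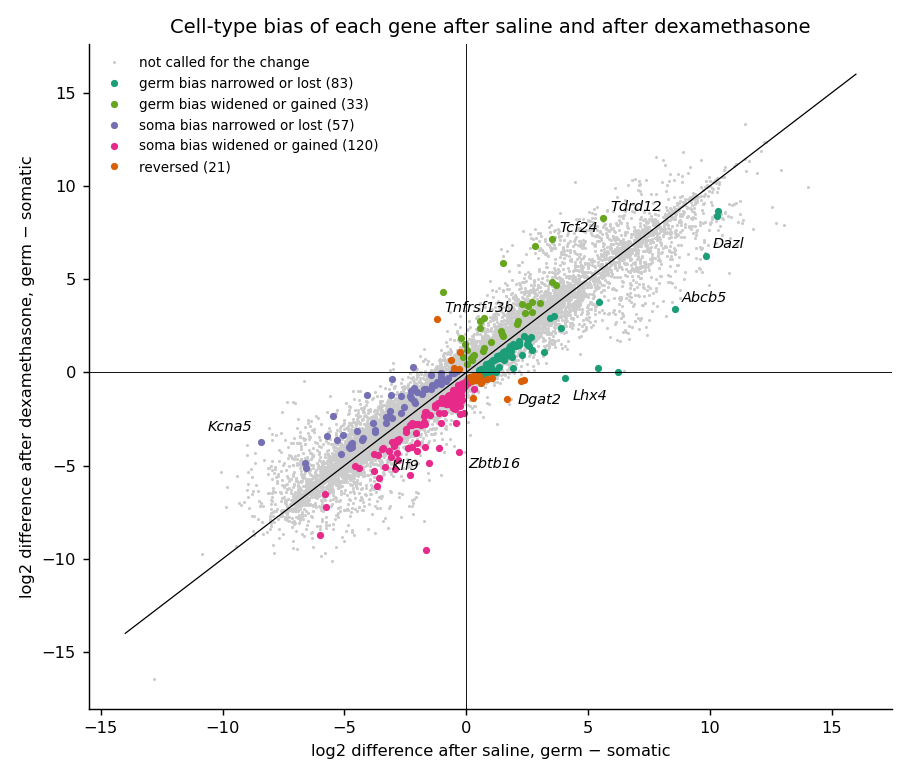
Log2 difference between germ and somatic cells after saline (x axis) and after dex (y axis) for each of the 19390 genes of the 12-library fit, with the 314 genes called for a change coloured by kind and the diagonal marking no change. Most genes follow the diagonal, and Lhx4 drops from the germ side to near 0 on the y axis.

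Calls for dex itself were more frequent in the somatic cells. Of the 314 genes, 205 were themselves called for dex against saline in somatic cells, 29 in germ cells, 2 of these in both, and 82 in neither. Over all genes the same fit called 803 (4.14%) in somatic cells and 64 (0.33%) in germ cells. Every kind had more genes called in somatic than in germ cells, and the narrowest gap was in soma bias narrowed, with 19 against 17. In that kind the somatic change was the larger in only 17 of 49 genes, and the median change was 0.47 in germ cells and -0.26 in somatic cells. Of the 83 genes with germ bias narrowed or lost, 50 rose in somatic cells and 5 fell in germ cells. Over all 19390 genes these numbers were 524 and 21, and the choice of genes by the change favours both directions. A call in one cell type and none in the other is not itself a difference between them, and the difference is what the change of bias tested.

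**Figure D4:**
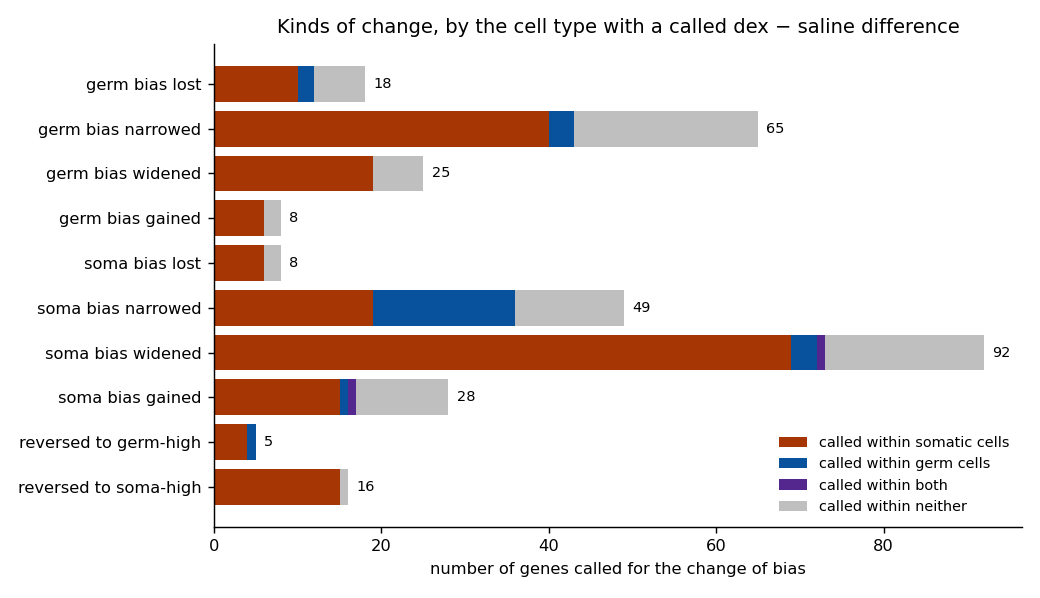
Number of genes called for the change of bias (x axis, from 0) for each kind (y axis), with the bar divided by the cell type in which dex against saline was also called in the same fit and the total written at its end. Somatic calls make up 70 of the 92 genes with widened soma bias, 1 of them shared with germ cells, whereas germ cell calls reach 17 of 49 where soma bias narrowed.

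Among the genes with narrowed germ bias, Dazl stood out by level. Dazl encodes an RNA-binding protein that germ cells need to keep developing, and it lies on chromosome 17 (50279395 to 50293636, GRCm38). In germ cells it was at 993, 945 and 1010 CPM after dex and 1067, 1044 and 1135 CPM after saline. In somatic cells it was at 12.7, 12.8 and 12.4 CPM after dex and 1.19, 1.35 and 0.97 CPM after saline, so the somatic groups did not overlap. The germ cell excess fell by 3.56 ± 0.14 on the log2 scale (adjusted p = 1.91e-10) to 77.7-fold. Other germ cell RNA-binding genes did not do the same by test: Ddx4, an RNA helicase of the germline, was at 0.776, 2.19 and 2.23 CPM in somatic cells after dex and 0.502, 1.61 and 1.21 CPM after saline (change -0.74 ± 0.36, adjusted p = 0.344). Over the list of 10 such genes only Dazl was called, beside 1.62% of all genes.

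Lhx4, a LIM homeobox gene, lost its germ bias. It was at 5.23, 3.76 and 6.15 CPM in germ cells against 6.27, 7.43 and 4.75 CPM in somatic cells after dex, where the ranges overlapped and the difference was not called (log2 -0.32 ± 0.26, adjusted p = 0.268). After saline the somatic libraries had been at 0.121 to 0.502 CPM and the germ cell libraries at 5.4 to 6.39 CPM. The change was -4.37 ± 0.46 (adjusted p = 6.89e-05).

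Abcb5, a drug efflux transporter gene, rose from 2 counts in all to 1.79, 2.08 and 1.41 CPM in somatic cells, while germ cells remained at 14.6 to 22.0 CPM. Its change of -5.17 ± 0.65 (adjusted p = 0.000346) depends on how the fit treats a level close to 0. A piRNA gene and a meiotic gene also narrowed from very high bias. Mov10l1, the piRNA helicase, went from 0.242 to 0.774 CPM in somatic cells after saline to 0.776 to 1.97 CPM after dex (change -1.91 ± 0.39, adjusted p = 0.0171), and Hormad1 changed by -1.66 (adjusted p = 0.028). Median somatic changes, dex minus saline, were 0.722 for meiotic cohesin, 0.462 for recombination, 0.435 for synaptonemal and 0.362 for RNA-binding genes. They were 0.158 for meiotic entry, 0.012 for piRNA, and 0.0 for the primordial germ cell list, the oocyte list and all genes tested. The part of germ cell RNA in the somatic libraries was not tested. Dnah9, an axonemal dynein gene, and Gm2061 changed by -2.13 ± 0.51 (adjusted p = 0.0434) and -5.18 ± 1.15 (adjusted p = 0.0308). The calls of Mov10l1, Hormad1, Gm2061 and Dnah9 were lost in 4, 7, 7 and 11 of the 12 fits that left out 1 library, with adjusted p up to 0.0939, 0.0949, 0.116 and 0.128. The 83 genes of this kind became 28 to 55 without any of somatic dex replicates 1 to 3, somatic saline replicates 2 and 3, germ cell dex replicates 2 and 3 or germ cell saline replicates 1 and 3, the fewest without somatic saline replicate 3.

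**Figure D5:**
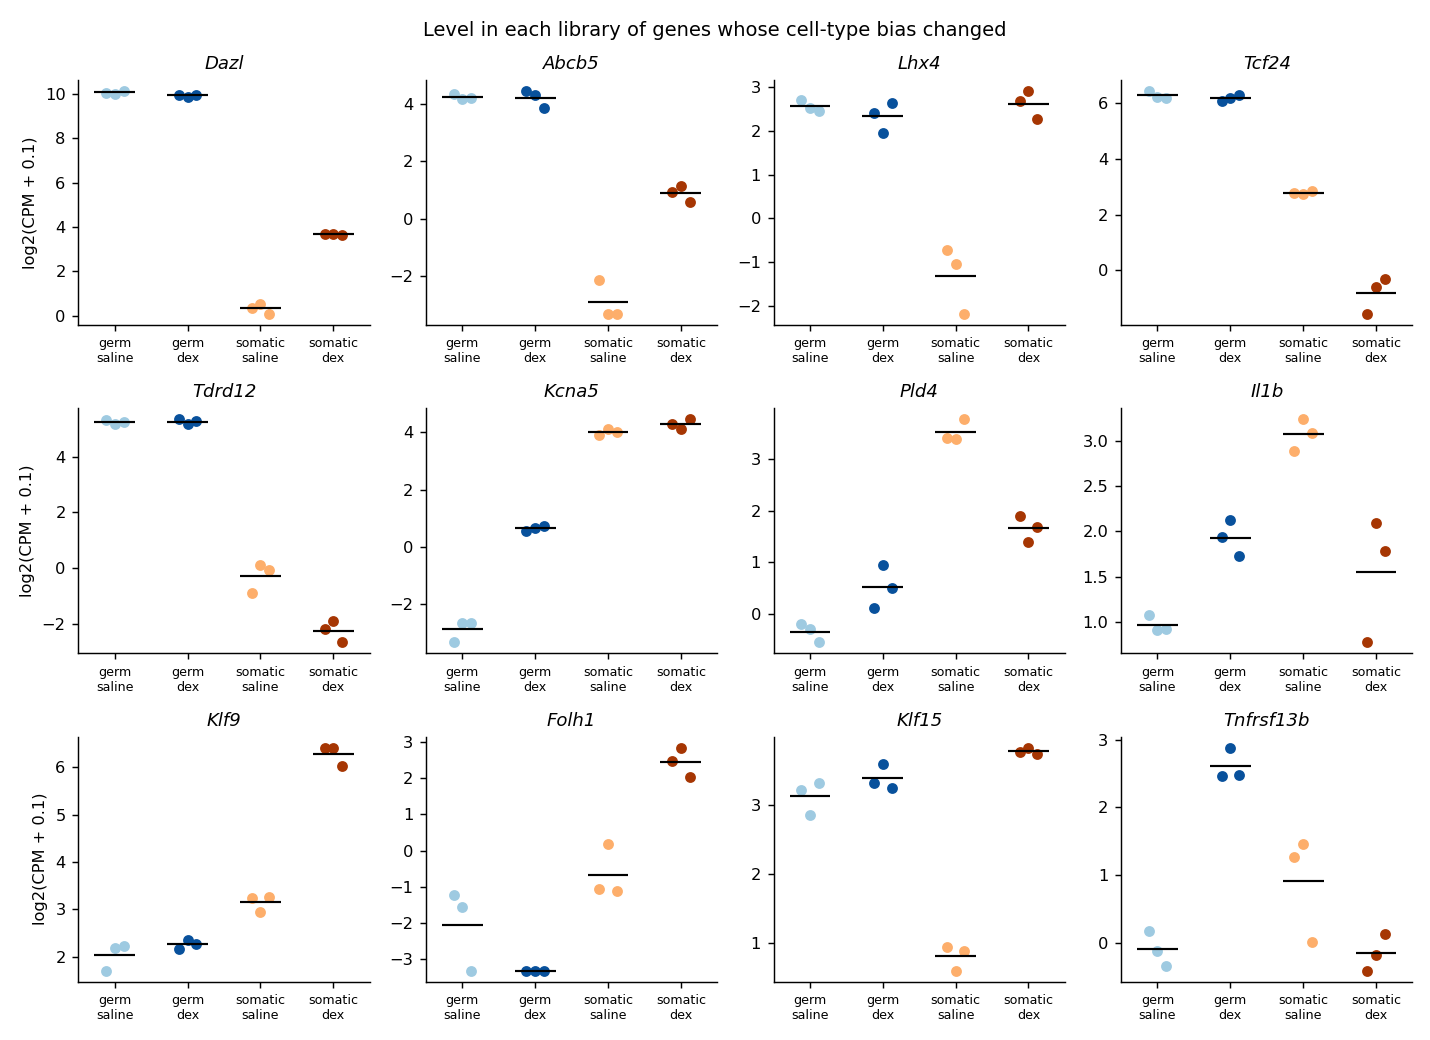
Level of 12 genes whose bias changed, as log2(CPM + 0.1) on the y axis with its own scale in each panel, for each library of the 4 groups on the x axis, where points are libraries and bars are group means. Somatic levels separate by treatment without overlap in Dazl, Lhx4, Tcf24 and Klf9, while in Kcna5 it is the germ cell groups that separate.

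Germ bias widened or was gained in 33 genes, 25 of which fell in somatic cells by test and none of which was called in germ cells. Over all 19390 genes 279 fell in somatic cells by test. Choosing genes for a change toward germ cells favours such falls. Tcf24, a basic helix-loop-helix gene, was at 67.7, 73.7 and 79.1 CPM in germ cells after dex, and in somatic cells it went from 6.71, 6.52 and 7.09 CPM after saline to 0.239, 0.563 and 0.705 CPM after dex. The somatic groups were far apart, and the change was 3.63 ± 0.25 (adjusted p = 5.38e-07). Tdrd12, a tudor domain gene of the piRNA pathway, held at 35.7 to 40.3 CPM in germ cells and went from 0.439 to 0.968 CPM to at most 3 counts per somatic library (change 2.63 ± 0.48, adjusted p = 0.00889). Tbx18, a T-box gene of mesenchyme, went from 4.39, 4.84 and 5.15 CPM to 0.656, 1.07 and 0.646 CPM in somatic cells (change 2.21 ± 0.36, adjusted p = 0.00446). Msh5, a meiotic crossover gene, was the single recombination gene of 22 called, beside 1.62% of all genes, at 186 CPM in germ cells after dex and 138 CPM after saline (change 0.99, adjusted p = 0.00665). Ttc9b, Itgax and Slc4a5 had changes of 4.38, 3.92 and 2.20, but their calls were lost in 8, 10 and 11 of the 12 fits without 1 library (adjusted p up to 0.101, 0.165 and 0.105). The 33 genes of this kind became 12 to 21 without any of the somatic saline libraries, somatic dex replicates 1 and 2, germ cell dex replicates 2 and 3 or germ cell saline replicates 1 and 3, the fewest without germ cell dex replicate 3.

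Soma bias narrowed or was lost in 57 genes. Kcna5, a voltage-gated potassium channel, moved in the germ cells: it went from 2 counts in all after saline to 1.37, 1.49 and 1.55 CPM after dex, with somatic cells at 17.3 to 21.8 CPM (change 4.68 ± 0.52, adjusted p = 0.000128). Pld4, a phospholipase D family gene of myeloid cells, moved in the somatic cells, from 10.5, 10.4 and 13.6 CPM after saline to 3.64, 2.53 and 3.11 CPM after dex (change 2.88 ± 0.41, adjusted p = 0.00136). Il1b, an inflammatory cytokine, lost its soma bias, at 1.61, 4.16 and 3.35 CPM in somatic cells and 3.73, 4.28 and 3.22 CPM in germ cells after dex, against 7.34 to 9.36 and 1.77 to 2.0 CPM after saline (change 2.47 ± 0.41, adjusted p = 0.00477). B3gat1, which makes a neural carbohydrate epitope, also lost its bias by test (change 2.68 ± 0.64, adjusted p = 0.0434). After dex it was at 1.31, 6.22 and 5.07 CPM in germ cells and 3.04, 5.63 and 7.34 CPM in somatic cells. Those germ cell levels came in the same order as the pregranulosa percentages given above, and the part of somatic RNA in them was not tested. The B3gat1, Kif12 and Prokr1 calls were lost in 9, 4 and 2 of the 12 fits without 1 library (adjusted p up to 0.119, 0.0592 and 0.0555).

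Germ cell dex replicate 1 had the lowest pregranulosa marker median among the germ cell libraries after dex. Without it, 167 genes narrowed or lost soma bias, against 57 with it and 34 and 36 without the second or the third. The count was 36 without somatic dex replicate 2 and 33, 31 and 23 without the somatic saline replicates 1, 2 and 3. The part of somatic RNA in the germ cell libraries was not tested. None of the 17 pregranulosa markers was called for a change, beside 1.62% of all genes. Their median change was 0.51, beside 0.005 over all genes. None of the 18 macrophage markers was called either. Lists this short can hold no call at that share, so its absence says little about them. The median change of the macrophage markers was 1.36, and their median bias went from -4.37 after saline to -3.11 after dex. Csf1r, the macrophage growth factor receptor, was at 10.7, 28.8 and 28.1 CPM in somatic cells after dex and 45.7, 58.0 and 64.5 CPM after saline, with no overlap, and its change of 1.25 ± 0.50 was not called (adjusted p = 0.238). Among stromal markers Dlk1, an imprinted Notch-family ligand gene, widened its soma bias (change -0.69, adjusted p = 0.0128).

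Soma bias widened or was gained in 120 genes, of which 85 rose in somatic cells by test, beside 524 of all 19390 genes. Choosing genes for a change toward somatic cells favours such rises. Klf9, a Krüppel-like factor and known GR target, went from 9.34, 7.55 and 9.46 CPM to 85.0, 84.7 and 65.5 CPM in somatic cells and was at 4.38, 4.99 and 4.71 CPM in germ cells after dex (change -2.95 ± 0.23, adjusted p = 1.6e-06). Zbtb16, a zinc finger gene, was without bias after saline, when all 6 libraries were under 1 CPM, and after dex reached 75.9, 78.9 and 53.8 CPM in somatic cells and 1.9, 4.41 and 4.48 CPM in germ cells. Its germ cell levels were 2.73%, 6.34% and 6.44% of the somatic mean, lowest in the first library as were the pregranulosa percentages of 3.18%, 11.9% and 9.07%, and the part of somatic RNA in them was not tested. The change of bias was -3.99 ± 0.73 (adjusted p = 0.00913, or 0.072 without germ cell saline replicate 2). Folh1, a folate hydrolase, had no count in the germ cell libraries after dex and 5.49, 7.09 and 3.99 CPM in somatic cells, at least 29.3-fold higher. Cnmd, a cartilage and vessel growth modulator, went from 2.9 to 4.73 CPM to 26.2 to 35.3 CPM in somatic cells (change -3.36 ± 0.52, adjusted p = 0.00287). Galnt15, a glycosyltransferase, changed by -3.20 ± 0.61 (adjusted p = 0.0128, or 0.109 without germ cell saline replicate 3). The Folh1 and Fmo1 calls were lost in 8 and 9 of the 12 fits without 1 library (adjusted p up to 0.112 and 0.169). The 120 genes of this kind became 60 to 79 without any of germ cell dex replicates 2 and 3, germ cell saline replicate 3, somatic dex replicates 1 and 2 or somatic saline replicates 2 and 3, the fewest without somatic saline replicate 3.

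Known GR targets were mostly on the somatic side after dex, with 15 of 20 tested soma-high, beside 42.2% of all genes, and 5 germ-high, and they had been so after saline, with 14 of 19 soma-high and 5 germ-high. The 5 after dex were Arrdc2, Errfi1, Irs2, Tsc22d3 and the receptor gene Nr3c1 itself, which was at 149.9, 163 and 155 CPM in germ cells against 83.1, 76.8 and 64.4 CPM in somatic cells (log2 difference 1.03 ± 0.09, adjusted p = 1.15e-06) with a change of bias of 0.14 ± 0.12 (adjusted p = 0.639). A change was called for 8 of the 20, beside 1.62% of all genes: Cebpd, Errfi1, Fkbp5, Glul, Klf9, Tsc22d3 and Zbtb16 toward somatic cells (1.13%) and Nfkbia toward germ cells (0.49%). The list was drawn up from genes known to answer GR, so its direction in somatic cells is no independent evidence. Tsc22d3, the GILZ gene, remained germ-high at 369.9, 357 and 410.5 CPM against 138, 151 and 129 CPM, but the gap fell by 1.13 ± 0.10 (adjusted p = 1.87e-05). Fkbp5, a chaperone of the receptor, went from a weak soma bias, with 71.9 to 87.8 CPM in germ cells against 118 to 143 CPM in somatic cells after saline, to 92.1 to 107 CPM against 300.5 to 321 CPM after dex (change -0.97 ± 0.12, adjusted p = 0.000328). Nfkbia, an inhibitor of NF-kB, averaged 38.6 CPM in germ cells against 101 CPM in somatic cells after dex, with a change of 0.88 (adjusted p = 0.000865).

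Bias reversed in 21 genes (13 without germ cell saline replicate 3), 16 from germ-high to soma-high and 5 the other way. Dgat2, an enzyme of triglyceride synthesis, was at 54.6, 59.8 and 55.1 CPM in germ cells against 11.2, 10.7 and 13.0 CPM in somatic cells after saline. After dex it was at 42.4, 40.9 and 47.8 CPM in germ cells against 59.8, 63.6 and 54.0 CPM in somatic cells, so the order of the groups turned without overlap in either treatment (change -2.72 ± 0.14, adjusted p = 4.35e-09). Klf15, a Krüppel-like factor that answers GR in several tissues, went from 1.42 to 1.82 CPM to 13.3 to 14.2 CPM in somatic cells with 9.43 to 12.1 CPM in germ cells (change -2.78 ± 0.27, adjusted p = 2.37e-05). Its soma-high call after dex was close (log2 -0.42 ± 0.16, adjusted p = 0.027) and was lost without germ cell dex replicate 1 or 3 or somatic dex replicate 1 or 2, with adjusted p up to 0.118. Hlf, a circadian PAR-domain factor, Tmtc1 and the zinc and manganese transporter gene Slc30a10 turned the same way, with changes of -1.69, -1.35 and -3.12. The germ bias of Hlf after saline was weak in the 12-library fit (log2 0.29, edgeR adjusted p = 0.0367).

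The reverse turn, from soma-high to germ-high, was led by Tnfrsf13b, a B-cell receptor for TNF-family ligands. It went from 1.03, 0.826 and 0.696 CPM to 5.43, 7.25 and 5.49 CPM in germ cells and from 2.32, 2.65 and 0.909 CPM to 0.656, 0.788 and 0.998 CPM in somatic cells. The germ cell groups did not overlap while the somatic groups did, and the change was 4.08 ± 0.54 (adjusted p = 0.000653). After saline the germ and somatic libraries overlapped, and the soma bias there was -1.21 on the log2 scale (12-library edgeR fit, adjusted p = 0.009). Tnfrsf13b was the only reversed gene called for dex against saline within germ cells. Shank1, a synaptic scaffold, and Chd5, a chromatin remodeller, had changes of 1.33 ± 0.15 (adjusted p = 0.000137) and 1.30 ± 0.20 (adjusted p = 0.00284). The soma bias of Shank1 after saline was weak (log2 -0.24, adjusted p = 0.0413), and its germ and somatic libraries overlapped there.

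Signalling genes were found on both sides. Of 20 genes for ligands or their synthesis, 16 were soma-high after dex (15 after saline), beside 42.2% of all genes, 3 were germ-high (Dll1, Ihh and Jag2) and 1 was not called. Of 20 receptor genes 12 were soma-high after each treatment, and 4 were germ-high after dex against 6 after saline. Kitl, the survival factor that somatic cells offer germ cells, was at 166, 178 and 229.5 CPM in somatic cells after dex and 6.41, 36.2 and 28.4 CPM in germ cells. Its receptor gene Kit was germ-high but narrowed, at 104, 124 and 122 CPM in germ cells after dex against 183, 185 and 161 CPM after saline, and at 40.9, 38.0 and 39.5 CPM in somatic cells against 33.5, 33.4 and 27.0 CPM. Neither cell type's groups overlapped between treatments, and the change was -0.94 ± 0.13 (adjusted p = 0.000955). Kit was the only receptor of 20 called for a change and the Notch ligand Jag1 (change 0.63, adjusted p = 0.0398) the only ligand of 20, beside 1.62% of all genes. The Jag1 call was lost in 9 of the 12 fits without 1 library (adjusted p up to 0.103).

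Sequence around the start sites of the changed genes was read from RefSeq promoter windows of the GRCm38.p6 assembly, 250 bases before to 50 after each start, which matched 232 of the 314 genes. The core hexamer of the GR binding site, TGTTCT or its reverse complement AGAACA, was found in the windows of 40 of these (17.2%) and in 15.4% of the 13036 genes tested that had a window. The E-box CACGTG was found in 22 (9.48%), beside 11% of all. The palindrome of 2 hexamers spaced by 3 bases was in no window of a changed gene and in 1 of all. By kind, the hexamer was in 25.9% of 27 genes with germ bias widened or gained, 19.5% of 82 with soma bias widened or gained, 17.5% of 57 with germ bias narrowed or lost, 12.8% of 47 with soma bias narrowed or lost and 5.26% of 19 reversed genes. These matches describe the letters of the windows only, and binding was not measured. The windows of 4 genes whose bias changed are shown because each holds a match, each read 5′ to 3′ on the gene's strand, with hexamers and E-boxes in capitals. Abcb5 (narrowed germ bias, minus strand) is chr12:118966372-118966671 and Cnmd (widened soma bias, minus strand) chr14:79662134-79662433, each with 1 hexamer. Fkbp5 (widened soma bias, minus strand) is chr17:28486100-28486399 with 1 E-box, and Klf15 (reversed, plus strand) chr6:90462326-90462625 with 3 E-boxes, the most among the genes named by rule.
Abcb5: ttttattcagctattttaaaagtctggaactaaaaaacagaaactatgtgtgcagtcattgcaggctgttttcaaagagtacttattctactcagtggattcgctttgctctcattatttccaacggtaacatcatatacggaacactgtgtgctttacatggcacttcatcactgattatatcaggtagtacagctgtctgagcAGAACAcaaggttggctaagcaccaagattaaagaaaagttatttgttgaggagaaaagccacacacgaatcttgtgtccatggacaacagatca
Cnmd: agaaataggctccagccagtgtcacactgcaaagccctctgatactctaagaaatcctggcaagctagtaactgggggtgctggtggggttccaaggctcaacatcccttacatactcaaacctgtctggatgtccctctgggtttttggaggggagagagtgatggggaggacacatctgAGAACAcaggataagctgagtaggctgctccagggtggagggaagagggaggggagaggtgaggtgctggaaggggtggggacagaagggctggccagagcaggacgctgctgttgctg
Fkbp5: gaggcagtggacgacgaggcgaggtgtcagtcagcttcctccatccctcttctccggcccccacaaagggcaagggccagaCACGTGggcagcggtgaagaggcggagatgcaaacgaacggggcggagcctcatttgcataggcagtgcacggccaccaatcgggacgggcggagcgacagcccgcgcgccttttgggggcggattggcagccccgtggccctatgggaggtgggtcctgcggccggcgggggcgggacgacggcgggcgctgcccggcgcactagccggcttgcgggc
Klf15: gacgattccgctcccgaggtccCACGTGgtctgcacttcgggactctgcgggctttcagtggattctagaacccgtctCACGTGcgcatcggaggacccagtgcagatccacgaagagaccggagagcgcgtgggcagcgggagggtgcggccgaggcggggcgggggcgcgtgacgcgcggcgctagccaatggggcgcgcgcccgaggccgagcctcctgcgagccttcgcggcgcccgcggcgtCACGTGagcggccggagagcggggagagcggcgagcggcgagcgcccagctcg

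X-linked genes were compared with autosomal genes because both X chromosomes are active in female germ cells at this age and only a single one in each somatic cell. Xist, the RNA that coats the silent X, was at 38.4, 65.9 and 42.2 CPM in germ cells after dex and 1004 to 1084 CPM in somatic cells. Over genes at 1 CPM or more in both cell types, the median log2 difference after dex was -0.176 for 451 X-linked genes and -0.035 for 12395 autosomal genes, with 42.1% and 41.1% called germ-high. Medians of single autosomes after dex ran from -0.222 (chromosome 18) to 0.311 (chromosome 12), a range that holds the X-linked value. After saline the medians were 0.03 for X-linked and 0.036 for autosomal genes. At 10 CPM or more in both cell types the X-linked median after dex differed from the autosomal one by -0.007, against -0.147 at 1 CPM or more, both with CPM scaled over the 6 dex libraries alone.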

How the data were processed

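Poly(A) RNA from sorted cells was sequenced as 12 libraries in 4 groups of 3. Per the submitters' processing notes, the authors used HISAT2 2.0.5, featureCounts 1.5.0-p3 and DESeq2 1.20.0 with the mm10 build. The authors deposited raw gene counts and FPKM values, which are scaled for length and depth. Deposited tables of the authors' own comparisons, with fold changes and p-values, were not used. Strand and multimapping settings were not given in the sources used here, so overlapping, antisense and near-identical genes are uncertain.

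Counts were fitted in edgeR 4.0.16 (R 4.3.3) with filterByExpr, TMM scaling and the quasi-likelihood test, and Benjamini-Hochberg adjustment over all genes tested. Germ against somatic cells after dex was fitted on the 6 dex libraries, and the change of bias and its kinds on all 12. The p-values measure the spread between these libraries. Counting intervals were exact at 95% and, like the floor of 3 counts per library, cover counting error only. Marker percentages are medians over a list of each gene's CPM relative to its mean in the other fraction.

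Members and lists were chosen with earlier results of these data known. Genes named were a fixed set, the 8 largest ratios in each direction among genes of at least 10 CPM (the lower group taken as at least 3 counts), the 6 largest changes of each kind and up to 8 reversed genes at 1 CPM or more, and list members as examples. Scripts were tested on simulated data. Alternatives were DESeq2 1.42.0, RLE size factors, no low-count filter, limma 3.58.1 on log2(FPKM + 1) or with a pseudocount of 0.1, other detection limits, a replicate block and leaving out each library. Python 3.11.15, pandas 2.3.3, NumPy 2.4.6 and matplotlib 3.10.9 were also used. The result of 1 gene is not reported here.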

Additional observations from a re-analysis of the deposited data

Results flagged for a closer look

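The effect of dex differed between germ and somatic cells by the edgeR test of the difference itself for each of the genes listed here, which are among those named in the text or called in a gene list. Values are log2 changes of bias, dex minus saline, and are negative when the bias moved toward somatic cells. Near-zero groups make the values of Folh1, Gm2061, Abcb5, Kcna5, Ttc9b and Itgax depend on the prior count of the fit.

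The bias moved toward somatic cells in Folh1 (-7.85), Gm2061 (-5.18), Abcb5 (-5.17), Lhx4 (-4.37), Zbtb16 (-3.99), Dazl (-3.56) and Cnmd (-3.36). Smaller moves in that direction were those of Galnt15 (-3.20), Slc30a10 (-3.12), Klf9 (-2.95), Klf15 (-2.78), Dgat2 (-2.72), Fmo1 (-2.71) and Dnah9 (-2.13). It also moved that way in Mov10l1 (-1.91), Cebpd (-1.75), Hlf (-1.69), Hormad1 (-1.66), Tmtc1 (-1.35), Tsc22d3 (-1.13) and Errfi1 (-0.98). The least were Fkbp5 (-0.97), Kit (-0.94), Glul (-0.93) and Dlk1 (-0.69).

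The bias moved toward germ cells in Kcna5 (4.68), Ttc9b (4.38), Tnfrsf13b (4.08), Itgax (3.92), Tcf24 (3.63), Kif12 (3.11) and Pld4 (2.88). Smaller moves toward germ cells were those of B3gat1 (2.68), Tdrd12 (2.63), Il1b (2.47), Prokr1 (2.31), Tbx18 (2.21) and Slc4a5 (2.20). The same direction held for Shank1 (1.33), Chd5 (1.30), Msh5 (0.99), Nfkbia (0.88) and Jag1 (0.63). Groups of 3 libraries are too small for a search for single outlying libraries, so none was made.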

How the results depend on the processing

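The counts of biased genes after dex remained within 1.5 times of the reported ones under the alternatives run, with 7630 to 7943 germ-high and 7583 to 7726 soma-high genes when 1 library was left out (7695 to 7839 and 7691 to 7929 after saline). The change of bias depended more on the setting. DESeq2 called 620 genes, 210 toward germ cells and 410 toward somatic cells, of which 183 narrowed or lost and 61 widened or gained germ bias and 143 narrowed or lost and 209 widened or gained soma bias. Without the low-count filter 727 were called, 351 and 376 in the 2 directions, with 137, 84, 260 and 225 of the same kinds. Leaving out 1 library gave 143 to 384 in all, 41 to 204 toward germ cells and 102 to 218 toward somatic cells (204 and 180 without germ cell dex replicate 1), 28 to 70 and 12 to 42 for the kinds of germ bias, 23 to 167 and 60 to 128 for those of soma bias, and 13 to 25 reversed. The cause was not tested.

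Replicate numbers were shared between groups, but the deviations of same-numbered germ and somatic libraries correlated at 0.054 to 0.099, none over 0.1, although each library correlated best with its own number. With the number as a replicate block 222 genes were called for the change, 50 with germ bias narrowed or lost and 18 with it widened or gained. The block ended the calls of Dnah9, Fmo1, Folh1, Gm2061, Hormad1, Itgax, Jag1, Mov10l1, Prokr1, Slc4a5 and Ttc9b.

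Genes detected only in germ cells numbered 1523 when up to 10 counts were allowed in the other fraction and 187 at 5 CPM or more (789 to 969 without 1 library), and those only in somatic cells 1404 and 105 (504 to 697). The X-linked median minus the autosomal one was -0.007 at 10 CPM or more and -0.15 to -0.106 without 1 library. Other marker definitions were compared by the mean of the list medians of the germ cell libraries after dex. It was 3.02% for endothelial and 0.763% for erythroid markers at 1 CPM or more. Against the saline somatic mean it was 2.68% for perivascular and 6.32% for macrophage markers. Of 43 named genes called for the change, 28 were called under every alternative. The uncalled dex differences of B3gat1 and Il1b changed sign, to 0.059 without germ cell dex replicate 1 and -0.028 without somatic dex replicate 1, and ranged from -0.743 to 0.059 and from -0.028 to 0.56 without 1 library.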

Other observations

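Cytosolic ribosomal protein genes were looked at after the changed genes had been seen. Of 80 tested, 15 were called for a change of bias toward somatic cells and none toward germ cells (18.8%, beside 1.13% of all genes called toward somatic cells), and 71 had a negative change. Among those called were Rpl37, Rpl38, Rps27 and Rps29. Their median log2 difference, germ minus somatic, was -0.53 after dex and -0.15 after saline, and 57 were soma-high after dex against 36 after saline. Together they took 3.79%, 3.84% and 4.18% of counts in germ cells and 5.03%, 5.18% and 5.4% in somatic cells after dex, and 3.77% to 4.35% and 4.57% to 4.73% after saline. The somatic shares after dex lay above those after saline, whereas the germ cell shares overlapped. Pseudogene copies make the counts of this family uncertain.

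Nuclear genes for subunits of the respiratory chain, also chosen after seeing the values, had 5 of 79 (6.33%, beside 1.13% of all genes) called toward somatic cells, namely Cox6c, Cox7c, Ndufa6, Ndufb9 and Ndufs7, with 61 negative changes and a median of -0.18.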
